A study of Mus musculus with 2 samples.

Results

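The genes described here are 7 that sensory neurons are known to switch on when their axons are cut: Atf3, Sox11, Sprr1a, Npy, Gap43, Ecel1 and Csf1. They were named as members by symbol, with earlier results of these data known, and all 7 are among the 39098 gene symbols of the 2 deposited libraries. After axotomy, a dorsal root or trigeminal ganglion neuron leaves its normal transcriptional state and turns on transcription factors such as ATF3 and SOX11, which act with c-Jun on genes of axon growth. GAP43 and SPRR1A are proteins of the growing axon, ECEL1 is a membrane peptidase made by injured neurons, and NPY and CSF1 are secreted. Gap43 is also known from intact adult sensory neurons, mainly peptidergic ones.

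The study took right trigeminal ganglia of male C57BL/6 mice of 5 to 8 weeks, a wild-type strain, and made 1 BD Rhapsody whole-transcriptome library per condition from polyA RNA. In the CFA group, 20 μL of complete Freund's adjuvant mixed with an equal volume of saline went into the right vibrissal pad, the skin that bears the whiskers, and ganglia were taken 7 days later. The control sample is labelled untreated, while the study's methods describe a saline injection. How many mice a library pools is not given, the injection itself pierces skin and its nerve endings in both groups if saline was given, and all cells went through warm papain digestion before capture.

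The control file held 7298 cells with 48916096 unique molecular identifiers (UMIs, 1 for each captured RNA molecule), and the CFA file held 4080 cells with 22096268 UMIs. Cells with at least 150 genes and at most 25% mitochondrial UMIs were kept, 6695 and 3661. Neurons were gated by raw UMIs of Tubb3, Snap25 and Uchl1, which gave 819 control and 415 CFA neurons with a median of 43702 and 36723 UMIs. Of these, 736 and 370 passed the marker gate of 1 of 9 classes, and 83 and 45 stayed in no class, with a median of only 5013 and 8470 UMIs. The classes hold between 11 and 243 control neurons and between 9 and 131 CFA neurons. In 23 of 24 further checks of a marker in its class, it ranked first or second of the 9 classes in both libraries. The exception was Scn4b in Nefh peptidergic neurons. Trpv1, Trpa1 and Adcyap1 were checked in both peptidergic C classes, so their ranks do not tell these classes apart. Some levels were low, such as CFA Pvalb at 6.29 CPM in Nefh A-fibre and CFA Bmpr1b at 4.80 CPM in Nefh peptidergic neurons. The files share 27 cell labels, and 22 of these were kept in both. RNA of glia was present in the neurons: 6 satellite glia markers summed to 292 counts per 1000000 UMIs (CPM) in control and 254 CPM in CFA neurons, against 16226 and 14923 CPM in satellite glia, and 5 markers of myelinating Schwann cells summed to 160 and 76.4 CPM. Values in parentheses are 95% intervals and cover counting error only: Poisson for levels, binomial for shares of cells and for ratios. With 1 library per condition no difference between control and CFA has a replicate check, and no p-value was computed.

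Promoters are shown for a pair of members, Atf3, the member found in the widest range of cells, and Sprr1a, which was nearly absent. Each sequence is the 250 bases before the RefSeq transcription start, on the gene's strand, from the GRCm38.p6 assembly. Capitals mark matches, on either strand, to the AP-1 site TGANTCA, where N is any base, which FOS and JUN proteins bind and which reads the same on the other strand, or to the cAMP response element half-site TGACGT, which CREB and ATF proteins bind and which reads ACGTCA on the other strand. Sprr1a (chr3:92485882-92486131, minus strand) had 2 AP-1 matches, which begin 146 and 116 bases before the start.
Sprr1a: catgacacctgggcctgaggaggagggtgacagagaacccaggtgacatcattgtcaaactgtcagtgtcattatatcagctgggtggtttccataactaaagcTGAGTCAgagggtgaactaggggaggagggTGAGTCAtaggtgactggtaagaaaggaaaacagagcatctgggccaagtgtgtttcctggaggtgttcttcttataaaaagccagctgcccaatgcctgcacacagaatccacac
Atf3 (chr1:191183334-191183583, minus strand) had 1 half-site match, which begins 8 bases before the start.
Atf3: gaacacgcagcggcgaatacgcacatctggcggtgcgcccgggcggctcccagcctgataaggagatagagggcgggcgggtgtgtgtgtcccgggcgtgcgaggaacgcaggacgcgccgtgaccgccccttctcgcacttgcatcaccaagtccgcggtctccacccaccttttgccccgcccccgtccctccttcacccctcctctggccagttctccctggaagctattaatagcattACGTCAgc
A GENCODE M21 transcript of each gene starts slightly before the RefSeq start, so that the last 14 bases for Sprr1a and the last 7 for Atf3 lie in an exon there, and the GENCODE gene of Atf3 begins far upstream of this window. Of the 6 members with a RefSeq promoter, Sprr1a alone had an AP-1 match and Atf3 alone a half-site match. Among all 32851 promoters of this length, 6.75% held an AP-1 match and 6.47% a half-site match, so the members' shares are those of 1 gene each and say nothing about which factors bind.

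In control and CFA ganglia the 7 genes fell into 3 kinds. Gap43, Atf3 and Sox11 were found in most neurons of both libraries. Csf1 was found in few neurons and at a higher level in most other cell groups. Sprr1a, Ecel1 and Npy were nearly or wholly absent. In all neurons pooled, 4 members had the 50 UMIs over both libraries that a comparison needs here, and 0 of the 4 passed a 2-fold difference between CFA and control in either direction. Across all 14501 genes with 50 UMIs in neurons, 1.02% were more than 2-fold higher and 1.49% more than 2-fold lower in CFA.

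Atf3 (chr1:191170296-191218039, minus strand) encodes a transcription factor of the ATF/CREB family that is induced by cell stress and is the usual marker of an injured sensory neuron. Neurons held 183.5 (179.3 to 187.9) CPM in control and 185.3 (178.8 to 191.9) CPM in CFA, and the log2 ratio of CFA over control was 0.014 (-0.048 to 0.075). At least 1 UMI was seen in 86.2% of control and 81.2% of CFA neurons. After thinning every neuron to 5000 UMIs, which leaves out 47 and 13 shallower ones, the shares were 52.2% and 50%. The median neuron had 135 CPM in control and 137 CPM in CFA, and the highest had 1285 and 1050 CPM. Atf3 RNA was therefore spread over most neurons of both libraries at a low level and not held by a few. Neurons accounted for 61.5% and 54.9% of the Atf3 UMIs of kept cells, although they hold 79.6% and 77.3% of all UMIs.

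Among neuron classes Atf3 was highest in Sst/Nppb neurons, the itch-linked class with somatostatin and natriuretic peptide B, at 540 CPM in control and 658 CPM in CFA. In control the order went on with Nefh A-fibre neurons at 306, Sstr2+ peptidergic C neurons at 257, Sstr2- peptidergic C neurons at 199, Mrgprd nonpeptidergic neurons at 192, Nefh peptidergic neurons at 144, Mrgpra3 neurons at 125, cold-sensing Trpm8 neurons at 97.0 and C low-threshold mechanoreceptors (cLTMRs) at 95.5 CPM. Of the 8 neighbouring pairs in that order, 5 were apart beyond their counting intervals, and Sstr2- peptidergic C and Mrgprd neurons, Nefh peptidergic and Mrgpra3 neurons, and Trpm8 neurons and cLTMRs were not. In CFA, Nefh A-fibre neurons came after Mrgprd neurons at 157 CPM, cLTMRs were last at 66.5 CPM, and 4 of 8 pairs were apart. The highest class exceeded the lowest 5.65-fold in control and 9.90-fold in CFA.

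The ratio of CFA over control for Atf3 went both ways among the classes, and 0 of the 9 classes passed 2-fold. It was above 0 beyond counting error in Sst/Nppb neurons, at 0.29 (0.049 to 0.52), and in Sstr2- peptidergic C neurons, at 0.16 (0.045 to 0.27). Below 0 it lay in Mrgprd neurons, at -0.27 (-0.40 to -0.14), in cLTMRs, at -0.52 (-0.80 to -0.26), and in Nefh A-fibre neurons, at -0.96 (-1.43 to -0.51), a class of 17 control and 9 CFA neurons. Atf3 in Sst/Nppb neurons changed direction, to -0.21, when neurons with glial markers above the neuronal median were left out. That setting left 6 control and 2 CFA Trpm8 neurons, in which Atf3 was at -3.90 and Gap43 at -2.96. It left 4 control and 0 CFA Nefh A-fibre neurons, so the ratio of that class could not be recomputed there.

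**Figure D1:**
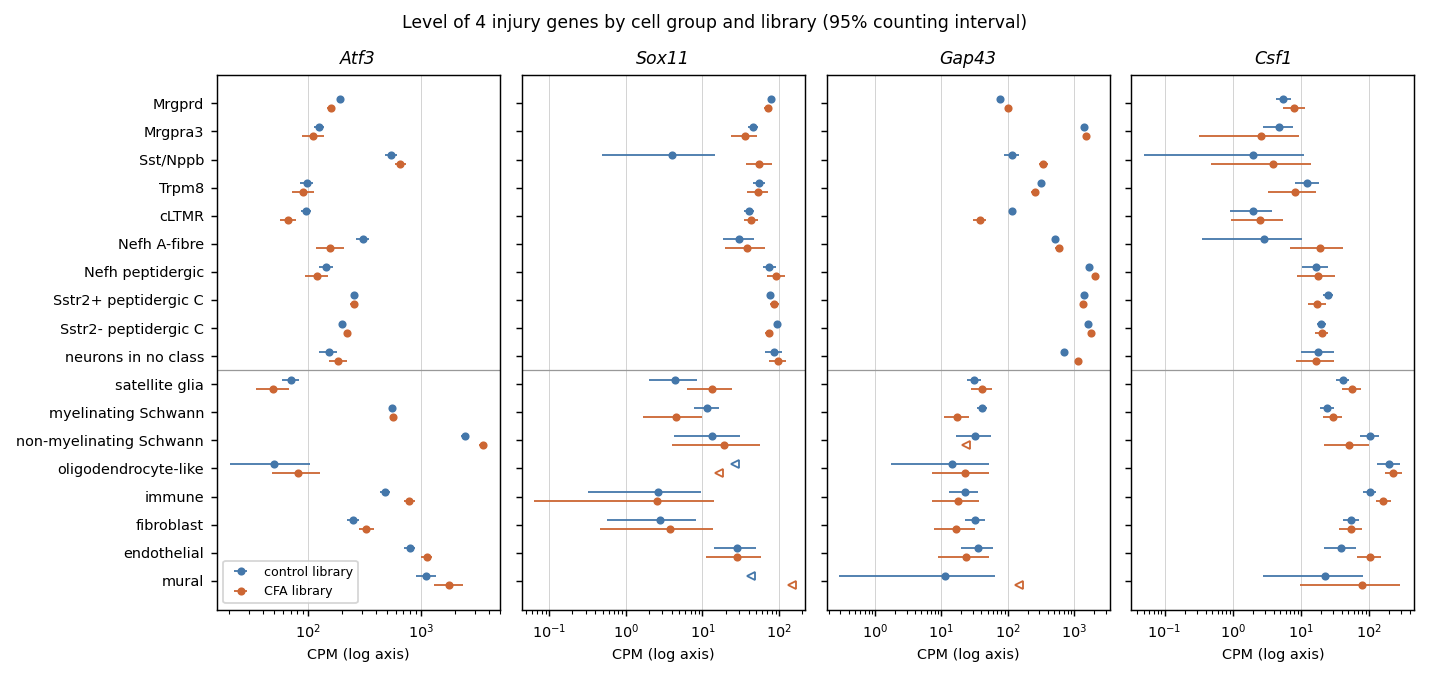
Level of Atf3, Sox11, Gap43 and Csf1 (columns) in each cell group (rows), in CPM on a log axis, with control in blue, CFA in orange, bars for the exact 95% Poisson interval and an open triangle at the upper limit where a group held 0 UMIs. Neuron classes stand above the grey line. Gap43 and Sox11 lie higher above the line than below it except in control Sst/Nppb neurons for Sox11 and CFA cLTMRs for Gap43, Csf1 mostly lies higher below it, and the highest Atf3 level of all groups is that of non-myelinating Schwann cells (2442 and 3547 CPM).

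Outside neurons Atf3 was highest in non-myelinating Schwann cells, the glia that wrap C fibres, at 2442 CPM in control and 3547 CPM in CFA, a log2 ratio of 0.54 (0.38 to 0.69). There 70.7% and 71.8% of cells had a UMI at a median depth of 925 and 823 UMIs. Mural cells followed at 1116 and 1782 CPM, endothelial cells at 798 and 1126 CPM, myelinating Schwann cells at 549 and 570 CPM, immune cells at 479 and 792 CPM and fibroblasts at 251 and 328 CPM. Satellite glia, which wrap the neuron bodies and lay lowest of the abundant groups, had 69.8 and 48.6 CPM, with a UMI in 11.2% and 5.48% of cells at a median depth of 2077 and 1874 UMIs. Every neuron class lay above satellite glia of its own library, and cLTMRs lay nearest. The ratio of CFA over control was above 0 beyond counting error in immune cells at 0.73 (0.50 to 0.95), mural cells at 0.68 (0.13 to 1.20), endothelial cells at 0.50 (0.26 to 0.73) and fibroblasts at 0.38 (0.10 to 0.66), and near 0 in myelinating Schwann cells at 0.055 (-0.072 to 0.18). None of these passed 2-fold, a line that 1.94% of genes passed upward and 2.96% downward in fibroblasts, 1.55% and 2.89% in endothelial cells and 2.72% and 7.85% in mural cells.

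Immediate early genes were read beside Atf3, because they are known to be induced in the minutes of tissue dissociation. Fos stood at 9518 CPM in control and 13445 CPM in CFA non-myelinating Schwann cells, at 11506 and 10283 CPM in endothelial cells and at 6235 and 5565 CPM in satellite glia, against 539 and 588 CPM in neurons. Of 24 immediate early and dissociation genes, 22 had 50 UMIs in non-myelinating Schwann cells, where 2 were more than 2-fold higher in CFA and 0 lower, beside 2.6% and 5.29% of all genes. In immune cells 3 of 22 were higher and 0 lower, beside 2.8% and 6.07%. Oligodendrocyte-like cells had 6 of 11 higher and 0 lower, beside 4.24% and 2.2%. Myelinating Schwann cells had 1 of 23 higher and 0 lower, beside 0.938% and 2.71%. Satellite glia had 0 of 22 higher or lower, beside 1.04% and 2.52%. In neurons 0 of 24 were higher or lower, with a median log2 ratio of -0.059 beside -0.0029 over all genes. The part of this response in the Atf3 levels was not tested.

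Sox11 (chr12:27334264-27342574, minus strand) encodes a transcription factor of the SoxC group that drives growth of young and regenerating axons. It was a neuronal RNA here, with 94.4% of its UMIs in control neurons and 94.3% in CFA neurons. The level was 71.0 CPM in control and 68.1 CPM in CFA, with a log2 ratio of -0.061 (-0.16 to 0.040). At least 1 UMI was seen in 75.5% and 74.5% of neurons, and in 27.2% and 27.9% after thinning. Satellite glia had a UMI in 0.772% and 1.37% of cells and a level of 4.42 and 13.1 CPM.

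In control, Sox11 ran from 93.9 CPM in Sstr2- peptidergic C neurons over 77.6 in Mrgprd, 76.7 in Sstr2+ peptidergic C, 74.7 in Nefh peptidergic, 55.2 in Trpm8, 45.4 in Mrgpra3, 40.1 in cLTMR and 30.3 CPM in Nefh A-fibre neurons to 3.98 CPM in Sst/Nppb neurons. Only 3 of the 8 neighbouring pairs were apart, the first, the fourth and the last. In CFA the classes lay between 35.5 CPM in Mrgpra3 and 91.3 CPM in Nefh peptidergic neurons, and 0 of 8 pairs were apart. Sox11 was lower in CFA in Sstr2- peptidergic C neurons, with 93.9 against 73.5 CPM and a log2 ratio of -0.35 (-0.54 to -0.16). In Sst/Nppb neurons it stood at 2 UMIs in 11 control neurons and 28 UMIs in 10 CFA neurons, which gives 3.80 (1.81 to 6.91) on the log2 scale. All but 1 of the 28 UMIs came from 3 neurons, which are described further on, and without these 3 the ratio was -0.46. Its SoxC relative Sox4 stood at 141 and 153 CPM in neurons.

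Gap43 (chr16:42248442-42340651, minus strand) encodes a protein of the growth cone membrane that is abundant in growing axons and stays on in part of the adult sensory neurons. Neurons held 98.5% of its UMIs in control and 98.6% in CFA. The level was 834 CPM in control and 924 CPM in CFA, a log2 ratio of 0.15 (0.12 to 0.18). Thinned detection was 70.7% and 73.1%, and satellite glia stood at 31.5 and 40.7 CPM.

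Gap43 followed the classes closely. Nefh peptidergic neurons held 1701 CPM in control and 2075 CPM in CFA, Sstr2- peptidergic C neurons 1641 and 1828 CPM, Sstr2+ peptidergic C neurons 1398 and 1349 CPM and Mrgpra3 neurons 1396 and 1494 CPM. Nefh A-fibre neurons were intermediate at 512 and 601 CPM and Trpm8 neurons at 321 and 258 CPM. Mrgprd neurons, at 77.2 and 100 CPM, and cLTMRs, at 115 and 37.7 CPM, were at the low end. The place of cLTMRs depends on few cells: the 5 control and 2 CFA cLTMRs with glial markers at or below the neuronal median had 749.8 and 0 CPM, and with every cell weighted equally control cLTMRs stood at 79.9 CPM. The highest class exceeded the lowest 22.0-fold in control and 55.1-fold in CFA, and 5 and 8 of the 8 neighbouring pairs were apart.

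Gap43 passed 2-fold between the libraries in 2 classes, in opposite directions. In Sst/Nppb neurons it was higher in CFA, with 58 UMIs in control and 174 in CFA and a log2 ratio of 1.57 (1.14 to 2.03), in a class where 1.21% of 3964 genes were that much higher. The same 3 neurons held 151 of the 174 UMIs, and without them the ratio was -0.80. In cLTMRs it was lower, with 511 and 89 UMIs and a log2 ratio of -1.60 (-1.95 to -1.28), in a class where 1.65% of 9697 genes were that much lower. There 1 control neuron held 36.8% of the control UMIs and 1 CFA neuron 46.1% of the CFA UMIs, and the median cLTMR had 13.2 CPM in control and 0 CPM in CFA. Smaller ratios that exceeded counting error were 0.38 (0.20 to 0.55) in Mrgprd, 0.29 (0.19 to 0.39) in Nefh peptidergic and 0.16 (0.12 to 0.20) in Sstr2- peptidergic C neurons. They were 0.10 (0.0033 to 0.19) in Mrgpra3 and -0.31 (-0.54 to -0.092) in Trpm8 neurons, and 0.75 (0.58 to 0.91) in neurons of no class. Of the 754 CFA UMIs in neurons of no class, 138 lay in 1 neuron, the one with 5 members raised that is described further on. In the other 7 classes 0 members with 50 UMIs passed 2-fold. The share of all genes past 2-fold higher and lower was 0.445% and 1.12% in Mrgprd, 0.435% and 2.9% in Mrgpra3, 0.363% and 1.67% in Trpm8, 1.98% and 3.73% in Nefh A-fibre, 1.54% and 2.53% in Nefh peptidergic, 0.459% and 1.63% in Sstr2+ peptidergic C and 0.46% and 1.65% in Sstr2- peptidergic C neurons. Of all genes, 0.984% were more than 2-fold lower in Sst/Nppb neurons and 0.33% higher in cLTMRs.

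**Figure D2:**
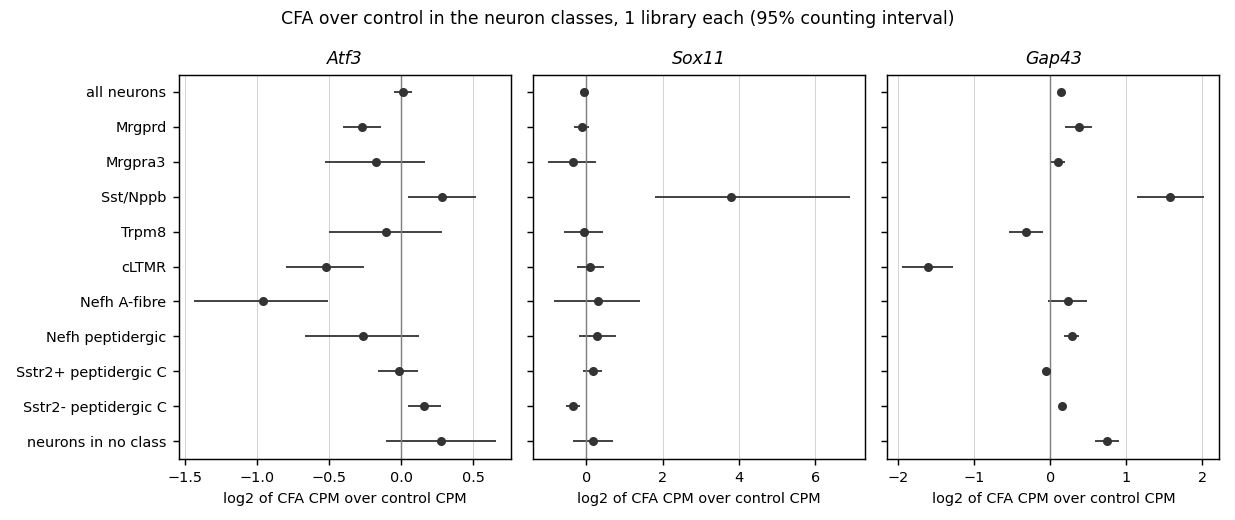
CFA over control, as the log2 of 2 CPM values, for Atf3, Sox11 and Gap43 in all neurons and in each class (rows), with exact 95% binomial intervals that cover counting error only, and 1 library behind each side. All neurons together lie near 0 for the 3 genes, while Sst/Nppb neurons stand out to the right for Sox11 (3.80) and Gap43 (1.57) and cLTMRs to the left for Gap43 (-1.60).

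In Schwann cells Gap43, which dedifferentiating Schwann cells are known to make, was sparse. Myelinating Schwann cells had 115 UMIs in control and 23 in CFA, or 41.3 and 17.5 CPM, a log2 ratio of -1.24 (-1.95 to -0.58). That was the 1 member of 3 past 2-fold in these cells, where 2.71% of all genes were that much lower. Non-myelinating Schwann cells had 12 and 0 UMIs. These levels are close to that of satellite glia, and after thinning other cells to 500 UMIs, 0.835% to 2.24% of myelinating Schwann cells and satellite glia had a UMI, so free RNA of neurons and expression cannot be told apart at this depth. Of 20 genes of the Schwann cell and satellite glia injury response, 8 had 50 UMIs in myelinating Schwann cells and 8 in satellite glia. Of these, 0 passed 2-fold in either direction, beside 0.938% higher and 2.71% lower of all genes in the former and 1.04% and 2.52% in the latter. In non-myelinating Schwann cells 0 of 8 were higher and 1 lower, beside 2.6% and 5.29%. Oligodendrocyte-like cells had 1 gene with 50 UMIs, which was lower, beside 4.24% and 2.2%.

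Sprr1a (chr3:92483952-92485895, minus strand), a small proline-rich protein that is nearly silent in intact ganglia, is the member that most closely marks injured neurons. The control library held 1 UMI of it, in an Sstr2- peptidergic C neuron. The CFA library held 22 UMIs, all in 1 neuron of no class. No other cell of either library had a UMI of Sprr1a.

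Ecel1 (chr1:87147655-87156521, minus strand), also known as damage-induced neuronal endopeptidase, had 13 UMIs over 8 control neurons and 26 UMIs over 4 CFA neurons. The control neuron with most held 6 UMIs, or 46.2%, and the CFA neuron with most held 23, or 88.5%. These are the neurons that held the Sprr1a UMIs, so that the 2 genes met in the same cell in both libraries. The relative Ece1 stood at 40.4 and 39.3 CPM in neurons.

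Npy (chr6:49822710-49829507, plus strand) encodes neuropeptide Y, which large myelinated neurons start to make after axotomy. Not 1 UMI was seen in 819 control or 415 CFA neurons, which allows a level of up to 0.0782 and 0.179 CPM, and the only UMI of the series was in a CFA fibroblast. Nefh A-fibre neurons, in which it would be looked for, were few. Receptors of the peptide were present: Npy1r was at 66.9 CPM in control and 94.9 CPM in CFA neurons, with 215 and 324 CPM in Sstr2+ peptidergic C neurons, and Npy2r was at 488 and 407 CPM in Sst/Nppb neurons.

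Csf1 (chr3:107741048-107760469, minus strand) encodes the growth factor through which injured neurons are known to reach macrophages and microglia. Neurons held 11.9 CPM in control and 12.4 CPM in CFA, with a log2 ratio of 0.051 (-0.19 to 0.29), and 45.9% and 33.7% of its UMIs. Among classes it was at 25.1 and 17.5 CPM in Sstr2+ peptidergic C neurons, a log2 ratio of -0.52 (-1.05 to -0.01), at 20.1 and 20.3 CPM in Sstr2- peptidergic C neurons and at 5.57 and 8.01 CPM in Mrgprd neurons. In Nefh A-fibre neurons 2 control and 6 CFA UMIs gave a ratio of 2.71 (0.23 to 6.05). Of the neighbouring pairs of classes 1 was apart in control, Trpm8 over Mrgprd neurons, and 0 in CFA.

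Of the Csf1 UMIs of kept cells, more lay outside neurons than in them. Of those outside, 168 in control and 145 in CFA were in cells of no group. With these set aside, neurons held more than the named groups together in control and less in CFA. By level, most named groups lay above neurons. Oligodendrocyte-like cells had 200 CPM in control and 229 CPM in CFA (4.24% and 2.2% of their genes were more than 2-fold higher and lower), immune cells 102 and 162 CPM, non-myelinating Schwann cells 103 and 51.1 CPM, fibroblasts 54.7 and 54.3 CPM, satellite glia 41.3 and 56.4 CPM and endothelial cells 38.6 and 104 CPM. The ratio exceeded counting error in immune cells at 0.67 (0.16 to 1.16), and in endothelial cells at 1.43 (0.46 to 2.45), which rests on 15 and 26 UMIs. Its receptor Csf1r was at 1177 CPM in control and 2225 CPM in CFA immune cells. These were gated as 1 group, without a split into macrophages and others, and 56.6% of control and 68.9% of CFA immune cells had a Csf1r UMI. The part of their mix in the Csf1r, Csf1 and Atf3 levels of immune cells was not tested. Il34, the other ligand of that receptor, was at 43.1 and 33.5 CPM in myelinating Schwann cells and at 2.37 and 2.03 CPM in neurons.

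A member other than Gap43 was called raised in a neuron where it had at least 3 UMIs and at least 100 CPM. Gap43 was called raised from 2 times the median CPM of its class, with no minimum of UMIs. Atf3 was raised in 456 control neurons (55.7%) and 219 CFA neurons (52.8%), Sox11 in 180 (22.0%) and 96 (23.1%), Gap43 in 109 (13.3%) and 69 (16.6%), Csf1 in 17 and 8, Ecel1 in 1 and 1, Sprr1a in 0 and 1 and Npy in 0 and 0. Many neurons lay near the line: 54 control and 23 CFA neurons had Atf3 between 75 and 100 CPM, and 57 and 19 between 100 and 125 CPM. For Sox11 these were 90 and 39 neurons below and 63 and 34 above. For Atf3 the line lay below the median neuron, which had 135 CPM in control and 137 CPM in CFA. In Sst/Nppb neurons 10 of 11 in control and 10 of 10 in CFA passed it. A raised call of Atf3 therefore does not set a neuron apart from the typical neuron of its library, and the counts of several members raised include such calls. In cLTMRs the Gap43 line was 10.1 CPM, which is less than 1 UMI at the usual depth of these neurons, so that 1 UMI counted as raised there.

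At least 2 members were raised in 183 control neurons, 22.3% (19.5% to 25.4%), and in 98 CFA neurons, 23.6% (19.6% to 28.0%). At least 3 were raised in 16 control neurons, 1.95% (1.12% to 3.15%), and in 15 CFA neurons, 3.61% (2.04% to 5.89%), and these intervals overlap. With the line at 50 CPM the numbers were 47 and 25, and at 200 CPM they were 5 and 4. The most in 1 neuron was 4 in control, in 2 neurons, and 5 in CFA, in 1 neuron. All 31 neurons with 3 or more held Atf3 and Sox11, joined by Gap43 alone in 8 and 11 of them and by Csf1 alone in 6 and 3. Gap43 and Csf1 met in only 1 control and 0 CFA neurons, and Npy, Sprr1a and Ecel1 were raised in at most 1 per library. Nearly every set of 3 therefore had to hold Atf3 and Sox11. The control neurons with 3 or more were spread over Mrgprd (4), Sstr2- peptidergic C (4), Sstr2+ peptidergic C (3), Trpm8 (2) and cLTMR (2) neurons and 1 neuron of no class. In CFA, 3 of 10 Sst/Nppb neurons and 4 of 45 neurons of no class were among them, against 0 of 11 and 1 of 83 in control, and the other 8 were spread over 6 classes. Their median depth was 38957 UMIs against 43727 for other control neurons and 47011 against 36365 UMIs for other CFA neurons.

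**Figure D3:**
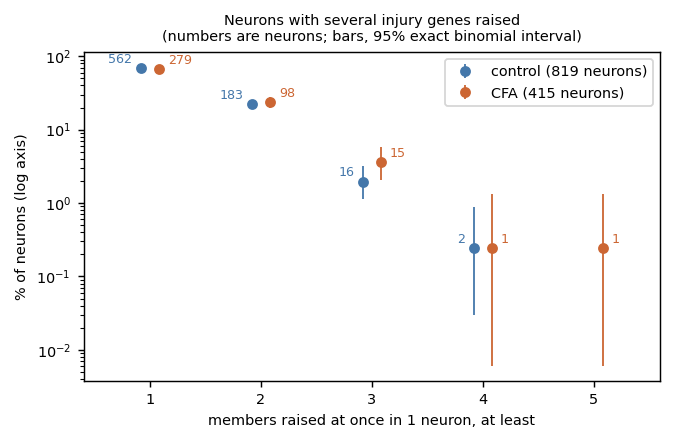
Share of neurons (log axis, %) with at least 1 to 5 of the 7 members raised at once, with control in blue and CFA in orange, exact 95% binomial intervals as bars and the number of neurons printed beside each point. The points of the libraries lie close together at 1 and 2 members, and at 3 members CFA (3.61%) lies above control (1.95%) with overlapping bars.

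Pairs of members were set beside the number that the product of their single shares gives. Atf3 and Sox11 were raised together in 137 control neurons, 1.37 times the product of 100, and in 74 CFA neurons, 1.46 times the product of 50.7. Sox11 and Csf1 met in 8 control neurons against 3.74 and in 3 CFA neurons against 1.85. Atf3 and Gap43 met less often than the product, in 41 control neurons, 0.68 times, and in 29 CFA neurons, 0.80 times, and Sox11 and Gap43 met in 17 against 24.0 and in 15 against 16.0. These counts pool classes that differ in depth, which moves each call of a raised gene. The classes also differ in how often the Gap43 line, set by their own median, was passed. Of the 109 control neurons with Gap43 raised, 45 were cLTMRs, a class low in Atf3. Only 1 of 243 Sstr2- and 0 of 129 Sstr2+ peptidergic C neurons were among them. Whether the pairs with Gap43 also fall short within a class was not tested.

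Split by Atf3 alone, the 456 control neurons with Atf3 raised had 85.5 CPM of Sox11 and the other 363 had 50.6 CPM, a log2 ratio of 0.76 (0.64 to 0.88). In CFA the levels were 83.5 and 47.3 CPM, a ratio of 0.82 (0.64 to 1.01). Sox11 was higher with Atf3 within Mrgprd neurons, at 0.65 and 0.66, within cLTMRs, at 0.96 and 0.98, within control Trpm8 neurons, at 1.81, and within Sstr2- peptidergic C neurons, at 0.60 and 0.54, all beyond counting error. In CFA Trpm8 neurons the ratio of 2.56 (1.59 to 3.61) rests on 32 and 13 UMIs in 6 and 13 neurons, under the 50 UMIs used here. Within Sstr2+ peptidergic C neurons it was 0.62 (0.25 to 1.00) in control and 0.18 (-0.28 to 0.67) in CFA. In Mrgpra3 neurons, split in control only, it was 1.08 (0.56 to 1.63), and in control Nefh A-fibre and Nefh peptidergic neurons, at -0.92 and 0.28, it stayed within counting error. Sox11 thus lay higher beside Atf3 inside most classes that could be split. Gap43 did not show 1 direction: its ratio was -0.70 and -0.82 in Mrgprd neurons and 1.32 and 2.79 in cLTMRs, with 0.42 and 0.48 over all neurons. Over all neurons Csf1 was higher with Atf3, at 0.56 (0.27 to 0.85) and 0.90 (0.46 to 1.36), but not within every class. Where it had 50 UMIs, its ratio was -0.82 (-1.59 to -0.047) in control Mrgprd neurons. It was -0.0064 (-0.58 to 0.60) in control Sstr2+ peptidergic C neurons. Sstr2- peptidergic C neurons had 0.45 (-0.028 to 0.94) in control and 1.03 (0.28 to 1.85) in CFA. Median depth was 44328 UMIs with Atf3 raised and 42403 without in control, and 37626 and 34807 in CFA, with 2.15% and 2.45% mitochondrial UMIs in control and 2.38% and 2.72% in CFA.

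Other genes moved with Atf3 as well. Of 24 immediate early and dissociation genes tested in control, 4 were more than 2-fold higher in neurons with Atf3 raised and 0 lower, namely Fosb, Fosl2, Btg2 and Npas4, beside 1.03% and 1.36% of all genes, and their median ratio was 0.65. In CFA 8 of 22 were higher, namely Fosb, Fosl2, Jun, Egr2, Nr4a1, Nr4a2, Btg2 and Zfp36, beside 1.27% and 1.85%, with a median of 0.96. Of 31 tested regeneration-associated genes, 4 were higher in control, namely the neuropeptide gene Nts (2.00), the adhesion gene Flrt3 (1.19), the neurotrophin gene Bdnf (1.03) and the cytokine gene Il6 (1.63), and 6 in CFA, these 4 with Jun and Gch1, and 0 were lower. The call for Nts rests on Sst/Nppb neurons, which held 415 of its 517 control UMIs and 272 of its 380 CFA UMIs. Without them the control ratio was -0.07 (-0.66 to 0.53), while 105 of the 108 CFA UMIs left lay in 1 neuron. Flrt3, Bdnf and Il6 stayed more than 2-fold higher in both libraries without Sst/Nppb neurons, a check added after the values were seen. The median ratio of this list was 0.19 and 0.37. The ratios of these lists pool neuron classes, which differ in how often Atf3 was raised. In control it was raised in 71.3% of Sstr2+ peptidergic C neurons and 37.3% of cLTMRs. The parts of the class mix and of the immediate early response in the neurons called Atf3-raised were not tested.

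Neurons with 3 or more members raised were compared with the rest over 2663 genes with 50 UMIs in these neurons of both libraries. None of these genes was more than 2-fold higher in both, and 1 was lower, Ngfr, the low-affinity neurotrophin receptor, at -1.03 in control and -1.16 in CFA. Ranked by the smaller of the 2 ratios, the 10 highest were Flrt3 (0.98 and 2.06), Mindy4b-ps (0.80 and 1.26), Tifa (0.71 and 0.94), Tagln2 (0.97 and 0.70), Npy1r (0.97 and 0.69), the axonal adhesion gene Chl1 (0.85 and 0.69), Thsd7a (0.64 and 0.67), Pim1 (0.61 and 0.67), Rnase4 (0.61 and 1.18) and Alkal2 (0.59 and 1.28). After Ngfr the lowest were Cd55 (-0.54 and -0.83), Cuedc2 (-0.45 and -0.48), Acot13 (-0.60 and -0.41) and Fxyd2 (-0.41 and -0.49). All these ratios pool neuron classes, and the part of the class mix in them was not tested. Flrt3 and Chl1 are 2 of the regeneration-associated genes. In CFA, 62 of the 102 Flrt3 UMIs came from 3 Sst/Nppb neurons and 11 from the neuron with 5 members raised, and without these 4 neurons the ratio was 0.79 (0.20 to 1.32). For Chl1 these held 38 of 66 UMIs, and without them the ratio was -0.0050 (-0.60 to 0.54). Of the 31 tested genes of that list, 2 were more than 2-fold higher in control, where 5.76% of all genes were, and 5 in CFA, where 4.22% were. Lower were 0 in control, beside 5.08%, and 2 in CFA, beside 6.43%.

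The CFA neuron with 5 members raised held 41489 UMIs, among them 30 of Atf3, 13 of Sox11, 22 of Sprr1a, 138 of Gap43, 23 of Ecel1, 4 of Csf1 and 0 of Npy. It passed no class gate, with 24 UMIs of Nppb, 0 of Sst and 2 of Calca, and held 105 UMIs of Nts. Of 31 regeneration-associated genes with 50 UMIs in CFA neurons, 10 had 3 UMIs and a level more than 2-fold above the other CFA neurons, beside 7.07% of all genes. Among those it held were 44 UMIs of the cell cycle inhibitor Cdkn1a, 26 of Gadd45a, 24 of the stathmin Stmn4, 18 of Chl1, 13 of Sema6a and 11 of Flrt3. Other genes of the list lay lower there than in the other CFA neurons. Among these were Jun (313 against 658 CPM), Gal (24.1 against 173), Bdnf (72.3 against 205) and Nrn1 (0 against 1002).

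The control neuron with Ecel1 raised, an Sstr2- peptidergic C neuron of 30271 UMIs, held 12 UMIs of Atf3, 11 of Sox11, 1 of Sprr1a, 156 of Gap43 and 6 of Ecel1, with 135 of Calca, 42 of Nts, 191 of Stmn2 and 59 of Hspb1. There 11 of the 31 genes had 3 UMIs and a level more than 2-fold above other control neurons, beside 6.33% of all genes. Others of the list lay lower, among them Nrn1 (165 against 1101 CPM) and Gal (0 against 187). Each library thus held 1 neuron with Sprr1a and Ecel1 together, 1 of 819 in control, 0.122% (0.00309% to 0.678%), and 1 of 415 in CFA, 0.241% (0.00610% to 1.34%). Both neurons were picked by members' values, so their members are a description.

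**Figure D4:**
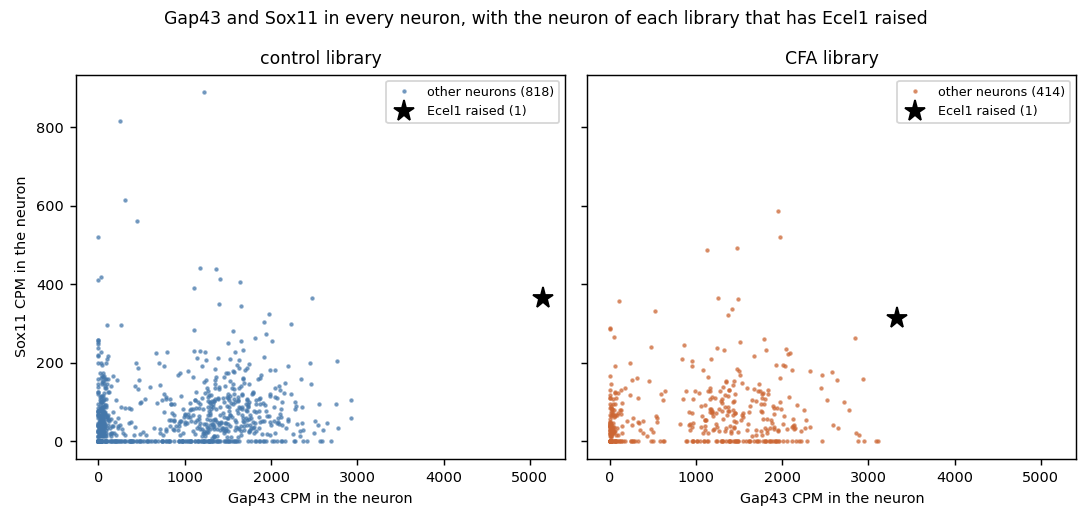
Gap43 (x) and Sox11 (y) in CPM in every neuron, 1 point each, with the control library on the left, the CFA library on the right and a star for the neuron with Ecel1 raised. Both stars lie to the right of every other neuron of their library, and a few other neurons have as much or more Sox11.

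The Sst/Nppb neurons were then read cell by cell, a choice made after their values were seen. In 3 of the 10 CFA neurons Gap43 stood at 56, 48 and 47 UMIs, Sox11 at 8, 8 and 11 UMIs and Atf3 at 35, 51 and 27 UMIs. The other 7 CFA neurons had 0 to 5 UMIs of Gap43 and 0 to 1 of Sox11, and the 11 control neurons had 1 to 13 and 0 to 1. These 3 were picked as the neurons of this class with Atf3, Sox11 and Gap43 all raised. Their separation in these members therefore follows largely from the choice and is a description. The 3 neurons overlap with the other 18 for Atf3 and not for Gap43 and Sox11, and all 3 genes were used to pick them. How many of all genes would part these neurons from the other 18 was not counted. The gap in Gap43 and Sox11 is therefore not read as a result about these members. The same 3 had 33, 15 and 11 UMIs of Sst, against 81 to 202 in the other CFA neurons and 16 to 226 in control, where 1 neuron at 16 had no Sox11.

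Summed, the 3 neurons held 940 (796 to 1102) CPM of Gap43, the other CFA neurons 66.6 CPM and the control neurons 116 CPM. Sst stood at 367, 2495 and 2571 CPM, and the neuropeptide gene Nts at 373 (285 to 481), 613 (534 to 702) and 827 CPM. Nppb differed less, at 1008, 1152 and 1402 CPM, as did the interleukin-31 receptor gene Il31ra, at 666, 576 and 534 CPM. Of the 40 regeneration-associated genes, 17 had 50 UMIs over the 3 neurons and the 11 control neurons. Of these, 5 were more than 2-fold higher in the 3 neurons, namely Flrt3, Cacna2d1, Cdkn1a, Hspb1 and Basp1, and 2 lower, Nts and Nrn1, beside 2.39% and 4.39% of 2805 genes. Flrt3 had 62 UMIs in the 3 neurons and 29 in all 11 control neurons, 20 of them in 1 neuron. It thus reached 50 UMIs only through the 3 neurons. Of 13 immediate early and dissociation genes 0 were higher and 4 lower. The 3 neurons were picked by members' values and set against control neurons alone. The choice of neurons and the library therefore cannot be told apart in these list counts, which are a description. The gate of this class asks for 50 UMIs of Sst and Nppb together, and 1 of the 3 had 54, so a neuron with somewhat less of both would have been counted in another class or in none.

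**Figure D5:**
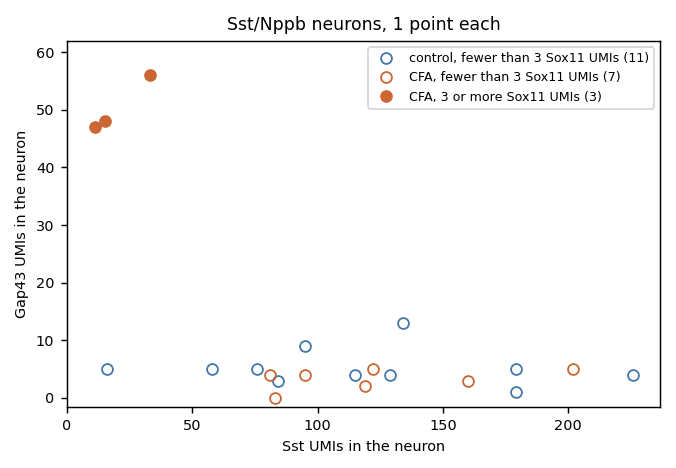
Gap43 UMIs (y) against Sst UMIs (x) in each of the 11 control (blue) and 10 CFA (orange) Sst/Nppb neurons, filled where Sox11 had 3 or more UMIs. The 3 filled CFA points lie at 47 to 56 Gap43 UMIs and 11 to 33 Sst UMIs, and the other 18 have 13 Gap43 UMIs or fewer. These 3 were picked by members' values, Gap43 among them.

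Beyond the members, 31 of the 40 regeneration-associated genes had 50 UMIs in neurons. Of these, 0 were more than 2-fold higher in CFA, beside 1.02% of all genes, and 2 lower, Il6 (-1.13) and the GDNF receptor gene Gfra1 (-1.01), beside 1.49%, with a median of -0.015 beside -0.0029 over all genes. In satellite glia 1 of 22 was higher and 3 lower, beside 1.04% and 2.52% of all genes. Myelinating Schwann cells had 0 and 3 of 24, beside 0.938% and 2.71%, and non-myelinating Schwann cells 0 and 2 of 15, beside 2.6% and 5.29%. Oligodendrocyte-like cells, with 56 control and 72 CFA cells, had 3 of 6 higher and 0 lower, beside 4.24% and 2.2%. Of 22 partners of the members (receptors, ligands and relatives), 15 had 50 UMIs in neurons, and 0 passed 2-fold in either direction.

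Genes whose levels followed a member's most closely over the 17 cell groups of both libraries (34 points, which share library and depth) were listed by Pearson's r of log2(CPM + 1), as a description. For Atf3 these were the heat shock gene Dnajb1 (0.85), the AP-1 gene Fosl2 (0.83), Ddx5 (0.82), Btg1 (0.82) and Mcl1 (0.81). For Sox11 they were Wbp4 (0.92), 4931428F04Rik (0.92), Arhgap28 (0.90), Cgref1 (0.89) and Abhd8 (0.89). Gap43 was followed by Ncdn (0.88), Arhgdig (0.87), Minar2 (0.87), Slc1a6 (0.86) and the μ opioid receptor gene Oprm1 (0.86). Csf1 was followed by Sik3 (0.91), Erbin (0.90), Sft2d2 (0.89), Arhgef2 (0.88) and Ppard (0.87).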

How the data were processed

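The authors deposited whole-number UMI counts per gene and cell for the cells called by the BD Rhapsody pipeline, without normalization, and the submitters' processing notes name fastp and GRCm38. The pipeline version and the gene annotation are not given in the sources used here, and strand use was not stated. Members and lists were chosen with earlier results of these data known. Cells were filtered as in the study (150 genes, 25% mitochondrial UMIs) and gated by raw marker UMIs instead of clustered. Doublets were kept, while cells that passed 2 gates of non-neuronal groups were left out (92 control and 58 CFA cells). Another 898 and 419 cells passed none. Gates for neurons were 20 UMIs of Tubb3, Snap25 and Uchl1 at 3 or more per 1000 UMIs. Class gates were 5 UMIs of Trpm8, Mrgpra3 or Mrgprd, 50 of Sst and Nppb, and 10 of Tafa4 and P2ry1. Then came 20 of Nefh at 300 CPM or more, 50 of Calca, and 2 of Sstr2. A gate in UMIs depends on depth. Neuron depth ran from 2152 to 156921 UMIs in control and from 1981 to 125975 in CFA.

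UMIs were summed per group and library and divided by all UMIs of that group (CPM). Exact 95% intervals are Poisson for levels, Clopper-Pearson for the share of cells, and binomial, given the sum of both counts, for a ratio. The floor is 3 counts. Background shares use genes with 50 UMIs over both sums and a 2-fold line, with a sum of 0 set to the floor. Neurons were thinned to 5000 and other cells to 500 UMIs. Ratios were tested on simulated data for CFA over control in all neurons with 14518 genes. Intervals held the true value for 95.9% of genes, and 99.0% of 198 changed and 0.196% of unchanged genes passed 2-fold. The simulated sums were Poisson, as the intervals assume, without variation between cells or libraries. These shares therefore check the arithmetic and are not a rate to set beside the real libraries. Named genes are the 7 members, list genes given with their counts, the 5 genes most like each member, and the 10 highest and 5 lowest in neurons with 3 members raised. Promoters came from RefSeq (GRCm38.p6), where 6 of 7 members matched and Gap43 did not, and positions from GENCODE M21. Python 3.11.15, numpy 2.4.6, scipy 1.17.1, pandas 2.3.3 and matplotlib 3.10.9 were used. Alternatives covered the cell filter, gates, glial RNA, cell weights, totals, centring, class weights, thinning, the lines for raised genes and single neurons left out.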

Additional observations from a re-analysis of the deposited data

Results flagged for a closer look

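The ratio of CFA over control pointed in opposite directions in different neuron classes for Atf3 and Gap43, with both directions beyond counting error. Sox11 and Csf1 did so too, but their higher values rest on few UMIs. For Sox11 these were 2 control and 28 CFA UMIs in Sst/Nppb neurons, and 27 of the 28 came from 3 neurons. Without these 3 neurons the Sst/Nppb ratio was -0.46 for Sox11 and -0.80 for Gap43. For Atf3 the Sst/Nppb ratio was -0.21 when neurons with glial markers above the neuronal median were left out. The higher value of Csf1 rests on 2 control and 6 CFA UMIs. It was 0.26 with the stricter cell filter of 300 genes and 10% mitochondrial UMIs. The differences between classes were not tested, since 1 library stands behind each value. For Atf3 the log2 ratio was 0.29 in Sst/Nppb and 0.16 in Sstr2- peptidergic C neurons, and -0.27 in Mrgprd neurons, -0.52 in cLTMRs and -0.96 in Nefh A-fibre neurons. For Sox11 it was 3.80 in Sst/Nppb and -0.35 in Sstr2- peptidergic C neurons. For Gap43 it was 0.38 in Mrgprd, 0.10 in Mrgpra3, 1.57 in Sst/Nppb, 0.29 in Nefh peptidergic and 0.16 in Sstr2- peptidergic C neurons and 0.75 in neurons of no class, and -0.31 in Trpm8 neurons and -1.60 in cLTMRs. For Csf1 it was 2.71 in Nefh A-fibre and -0.52 in Sstr2+ peptidergic C neurons.

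Among cells outside every comparison, kept cells that passed no gate or several (990 control and 477 CFA cells) held 77.0 (65.8 to 89.6) CPM of Csf1 in control and 123 (104 to 144) CPM in CFA, a log2 ratio of 0.67.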

How the results depend on the processing

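No paired analysis was possible because each condition has 1 library, and for the same reason no replicate could be left out. Of 1196 values recomputed for 164 results, 1058 stayed within the counting interval (counts of neurons within 1.5 times), 135 moved past it and 3 turned from a ratio beyond counting error to the other direction. Among the log2 ratios, 14 other values changed sign, all of ratios within counting error. The causes were not tested. Leaving out neurons with glial markers above the median moved Atf3 in Sst/Nppb over Mrgprd control neurons to 1.93, Gap43 in Nefh peptidergic over Mrgprd CFA neurons to 4.10, Csf1 in Sstr2- peptidergic C neurons over cLTMRs in control to 1.48 (in CFA it gave no value), and CFA over control in all neurons to 0.083 for Atf3, 0.20 for Gap43 and 0.35 for Csf1. It left 88 and 55 neurons with 2 and 6 and 8 with 3 members raised, gave Gap43 0.13 and 0.20 and Csf1 in control 0.19 in Atf3-raised over other neurons, and turned Atf3 CFA over control in Sst/Nppb neurons to -0.21. Weighting cells equally gave Gap43 4.31 in Nefh peptidergic over Mrgprd control neurons and 0.21 for CFA over control. Equal class weights gave -0.074 for Atf3 and 0.12 for Gap43. Thinned Atf3 detection was 29.9% and 27.1% at 2000 UMIs, and 25% and 24.9% for 2 UMIs. With raised genes from 50 CPM, 322 control neurons had 2 members raised and 47 and 25 had 3. From 200 CPM these were 47 and 37 with 2 and 5 and 4 with 3, and without Gap43 8 and 4 had 3. With Atf3 raised from 200 CPM, Sox11 was 0.53 and 0.43 and Gap43 0.17 and 0.42 in these over other neurons. Settings chosen after seeing the data left out single neurons or shared cell labels: without the 3 CFA Sst/Nppb neurons CFA over control there was -0.46 for Sox11 and -0.80 for Gap43.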
